A study of Mus musculus with 90 samples.

Results

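The genes described here are 9 C-type lectin receptors of myeloid cells, taken by name from a table of 24543 genes: Clec4a1, Clec4a2, Clec4a3, Clec4d, Clec4e, Clec4n, Clec5a, Clec7a and Clec12a. Their RNA was measured in 90 libraries, in 38 groups, of mouse BMMs, which are macrophages raised from bone marrow in M-CSF, their main growth factor. In the first experiment, Irf8-/- cells (KO) and Irf8+/+ cells (WT) were sampled with M-CSF alone (day 0) and with M-CSF plus RANKL, which drives macrophages to become the osteoclasts that resorb bone, at days 4 and 8, with 3 libraries per group and 2 for WT at day 4. In the second, cells carrying human IRF8 constructs named hIRF8G388S (hG388S below), hIRF8379-389 (h379-389) and hIRF8WT (hWT), and cells labelled mock, followed the same days, with 3 libraries per group and 2 at day 8 for hG388S, hWT and mock. The third experiment used these 4 kinds of cell as macrophages, either untreated, given interferon-gamma (IFNg), or given IFNg together with LPS, a lipid of bacterial walls, for 1, 4 or 8 h, with 2 libraries per group. The transduced cells are described as Irf8-/- BMMs, so they share the loss of mouse Irf8. What the mock cells received, what the digits in the name hIRF8379-389 stand for, the vector and its promoter, and the age of the mice are not given in the labels, and mice of both sexes were used. Nothing says that replicates came from separate animals or cultures, so a p-value here weighs a difference against a spread between libraries that may be technical only.

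C-type lectin receptors of myeloid cells sense fungal and mycobacterial sugars and lipids and material from dying cells. Dectin-1 (Clec7a) binds beta-glucan and signals through its own tail to the kinase SYK, while Dectin-2 (Clec4n), Mincle (Clec4e) and MCL (Clec4d) have no signalling tail and use the adaptor FcR gamma (Fcer1g) to reach SYK and CARD9. MDL-1 (Clec5a) uses DAP12 (Tyrobp), an adaptor that osteoclast precursors also need. DCIR (Clec4a2) and MICL (Clec12a) carry inhibitory motifs that recruit phosphatases, and Clec4a1 and Clec4a3 encode close relatives of DCIR.

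All 9 genes lie on mouse chromosome 6 (mm10, positions from GENCODE M21, all protein coding there except Clec7a, which is typed as a polymorphic pseudogene). The 6 Clec4 genes occupy a cluster of 368 kb (chr6:122921848-123289870), Clec12a and Clec7a lie within 130 kb of each other (chr6:129342691-129472779), and Clec5a stands apart (chr6:40574894-40585821). Close relatives in the cluster can share reads, and the sources used here do not say how such reads were placed, so the values of Clec4a1, Clec4a2 and Clec4a3 carry that uncertainty.

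Promoters from RefSeq (GRCm38.p6, the build of mm10), 250 bases before to 50 bases after the gene start, were at hand for 8 of the 9 genes and are shown for 5 whose levels moved in ways described below. These are the 2 genes that were lowest in KO at day 0 relative to WT (Clec4a1 and Clec7a), the gene with the greatest difference between hWT and mock at day 0 (Clec4d), the gene that rose most with LPS (Clec4e), and the one that was higher in KO at day 0 and lower than mock with every construct (Clec5a). Clec7a and Clec4a3 have 2 RefSeq starts each, and the first listed is shown for Clec7a. Capitals mark motif matches. In Clec4a1 (chr6:122921598-122921897, plus strand) and Clec7a (chr6:129472730-129473029, minus strand) they mark the ETS-IRF composite (GGAA, any 2 bases, GAAA). In Clec4d (chr6:123261857-123262156, plus strand) they mark the interferon response motif (GAAA, any 2 bases, GAAA), which begins at the gene start. In Clec4e (chr6:123289822-123290121, minus strand) they mark the C/EBP motif TTGCNNAA, and Clec5a (chr6:40585756-40586055, minus strand) has no match.
Clec4a1: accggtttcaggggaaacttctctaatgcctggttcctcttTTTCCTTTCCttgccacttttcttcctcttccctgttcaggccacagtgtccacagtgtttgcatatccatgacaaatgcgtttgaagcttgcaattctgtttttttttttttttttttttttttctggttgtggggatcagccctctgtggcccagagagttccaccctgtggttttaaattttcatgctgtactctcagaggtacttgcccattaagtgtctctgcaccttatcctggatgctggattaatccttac
Clec7a: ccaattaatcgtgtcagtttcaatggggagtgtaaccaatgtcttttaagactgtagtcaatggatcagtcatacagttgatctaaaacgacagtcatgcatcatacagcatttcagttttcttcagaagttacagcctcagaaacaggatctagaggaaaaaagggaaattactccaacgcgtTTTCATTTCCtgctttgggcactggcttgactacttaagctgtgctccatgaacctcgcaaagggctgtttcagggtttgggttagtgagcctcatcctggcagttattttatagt
Clec4d: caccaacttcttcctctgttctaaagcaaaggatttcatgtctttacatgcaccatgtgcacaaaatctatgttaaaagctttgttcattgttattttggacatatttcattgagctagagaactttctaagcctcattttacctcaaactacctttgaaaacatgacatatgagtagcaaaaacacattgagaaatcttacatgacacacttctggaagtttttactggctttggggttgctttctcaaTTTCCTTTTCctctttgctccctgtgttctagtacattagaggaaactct
Clec4e: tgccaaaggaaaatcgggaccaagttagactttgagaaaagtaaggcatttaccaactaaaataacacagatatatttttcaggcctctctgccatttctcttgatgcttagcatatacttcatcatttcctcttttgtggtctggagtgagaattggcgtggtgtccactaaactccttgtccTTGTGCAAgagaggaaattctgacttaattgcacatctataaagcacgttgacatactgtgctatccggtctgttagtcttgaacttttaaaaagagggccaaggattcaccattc
Clec5a: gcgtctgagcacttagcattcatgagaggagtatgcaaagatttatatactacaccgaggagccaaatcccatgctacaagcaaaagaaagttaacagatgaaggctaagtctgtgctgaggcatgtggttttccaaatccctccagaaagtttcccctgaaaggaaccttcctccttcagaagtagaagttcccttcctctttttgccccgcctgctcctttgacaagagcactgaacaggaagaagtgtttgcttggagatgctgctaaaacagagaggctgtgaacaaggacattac

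A set of 6 motifs was searched on both strands, without regard to overlap: these 3, the NF-kB motif (GGG, any 2 bases, TTTCC), the AP-1 motif TGANTCA and the PU.1 motif AGGAAGT. Of 32851 promoters of the same length, 2.72% held the ETS-IRF composite, 3.44% the interferon motif, 1.63% the NF-kB motif, 10.8% the C/EBP motif, 7.81% the AP-1 motif and 9.35% the PU.1 motif. Clec12a also held the C/EBP and AP-1 motifs, Clec4a2 held the AP-1 motif, and Clec4a3 held none at either start. A match is a run of letters and not a binding site.

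Libraries held 0.218 to 122 M alignments (median 41.1 M, second lowest 15.6 M). The shallowest is untreated hWT macrophage library 1, in which 1 read per kb of gene is worth 4.58 RPKM (reads scaled by gene length and by the alignments of the library). It also stands apart from its partner, with Irf8 at 146 RPKM against 64.1 RPKM in library 2, so several results that rest on it are given with and without it. This library also adds to the pooled spread of tests in the other macrophage conditions. Irf8, the deleted gene, was lower in KO than in WT at day 0 (33.3 ± 0.850 and 72.0 ± 2.57 RPKM, SD, n = 3 each) and day 4, did not pass at day 8 (log2 -0.52, adjusted p = 0.0503), and was higher with each construct than in mock at each day of the second experiment. In untreated macrophages it stood at 59.5 to 64.1 RPKM in the cells with a construct, the shallow library aside, and at 68.5 and 77.5 RPKM in mock. Of the comparisons with mock in a single macrophage condition, only that of hG388S after 4 h of LPS passed for Irf8 (log2 0.55, adjusted p = 0.0255), and over the 5 conditions only that of hWT did (log2 0.32, adjusted p = 0.00465), so in macrophages Irf8 gives little check of the labels. Osteoclast markers (9 genes, summed) reached 32410.0 to 48140.0 RPKM in KO and 17730.0 to 18060.0 RPKM in WT at day 4, against at most 30.6 RPKM in the libraries of the first experiment at day 0, and no gene on the B cell, T and NK cell or mast cell lists averaged 1 RPKM in any group. The levels in 4 libraries of the first experiment (KO day 4 library 3, KO day 8 libraries 2 and 3, WT day 4 library 3) fall with gene length, and results that depend on them are named. That trend was looked at in the first experiment only.

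Levels below are RPKM per library in the order of the library numbers. Differences are on the scale of log2(RPKM + 1) and carry the standard error from limma, fitted over all groups of an experiment, and a gene rose or fell where the Benjamini-Hochberg adjusted p over all genes tested in that contrast was under 0.05. All 9 genes passed the filter on low values in each experiment.

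In WT cells before RANKL the lectins were unequal in level. Per kilobase, Clec4d made up 35.4% and Clec4n 24.2% of the 1359 ± 27.9 RPKM that the 9 genes summed to, followed by Clec4a1 at 16.3%. Clec4e (1.39%) and Clec5a (0.354%) were the scarcest. In KO cells at day 0 the pattern was different: 7 of the 9 genes passed the test, 5 lower and 2 higher, beside 40.2% of the 11530 genes tested (26.5% higher and 13.7% lower). The median log2 difference was -1.39 over the members and 0.12 over all genes.

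**Figure D1:**
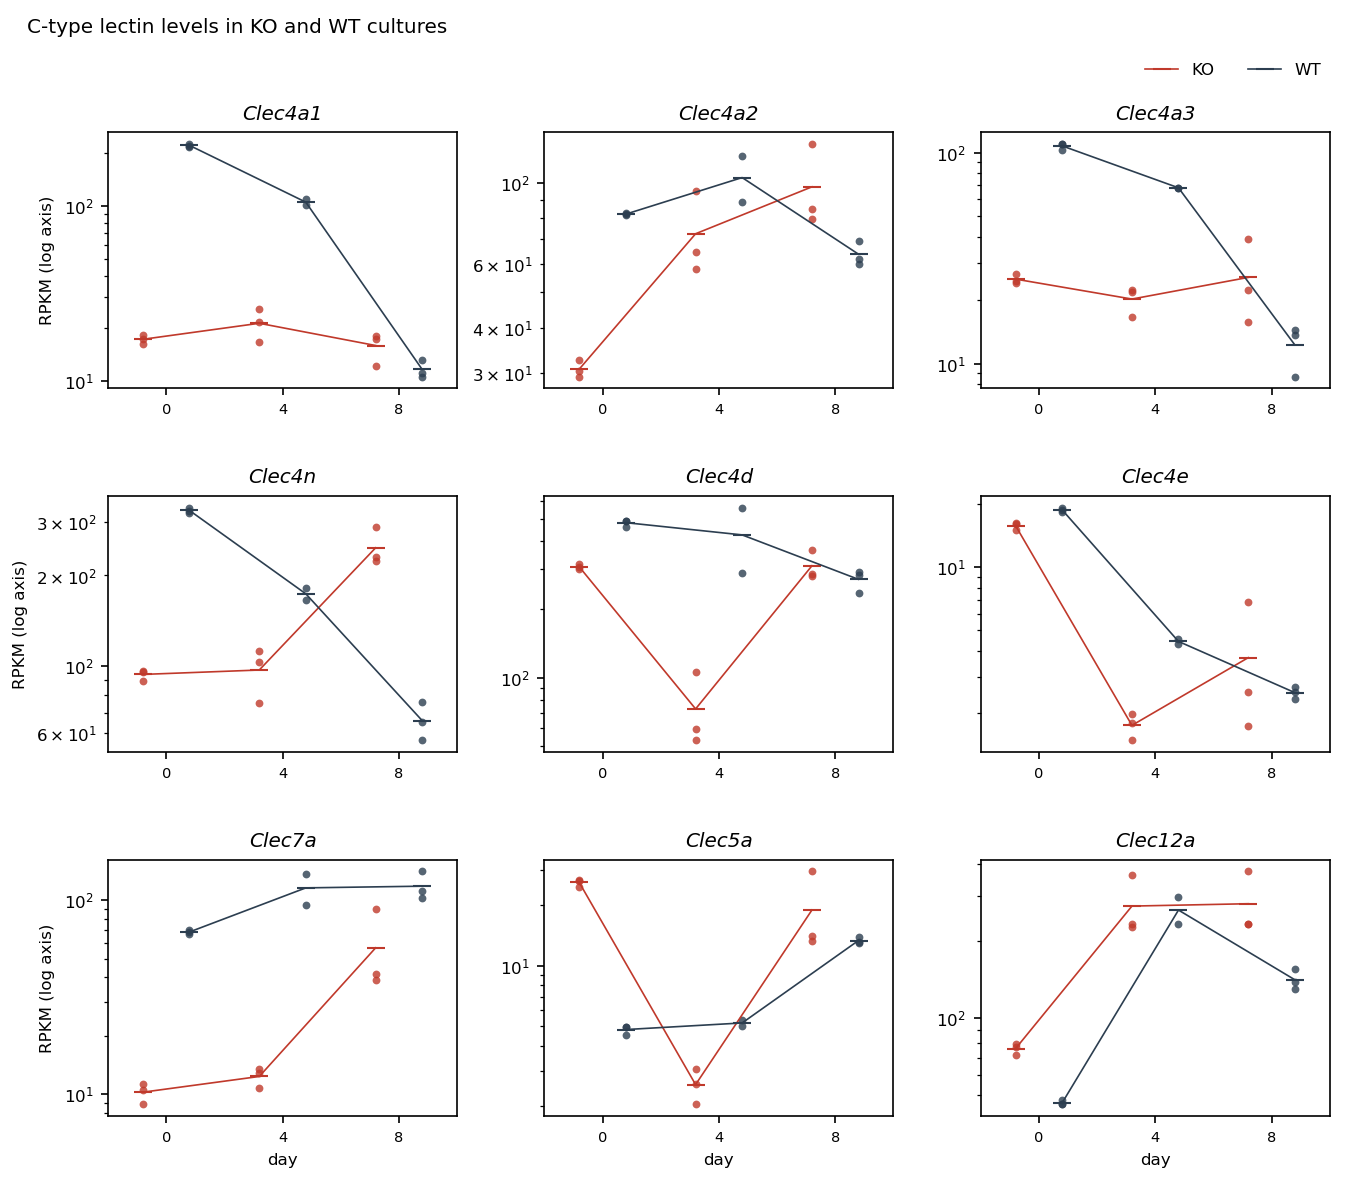
RPKM (log axis) of the 9 genes in every library of the first experiment by day, KO points left of WT points, with a dash and line for the group mean. Clec4a1 and Clec4a3 stand far below WT in KO at day 0 and meet or pass it by day 8, whereas Clec7a stays below WT throughout.

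Among the DCIR family, Clec4a1 was the most affected. It stood at 18.3, 17.3 and 16.3 RPKM in KO and 218, 219 and 226 RPKM in WT at day 0. The groups are far apart, a 12.1-fold difference (log2 -3.6 ± 0.17, adjusted p = 2.19e-10). Clec4a3 stood at 26.7, 24.1 and 24.7 RPKM in KO and 103, 110.2 and 109 RPKM in WT, again without overlap (log2 -2.05 ± 0.25, adjusted p = 7.88e-06). Clec4a2, the inhibitory DCIR, had 32.5, 30.4 and 29.3 RPKM in KO and 81.8, 82.8 and 82.1 RPKM in WT, the smallest fall of these 3 (log2 -1.39 ± 0.20, adjusted p = 4.37e-05). These are bulk cultures, so fewer cells of a type and less RNA per cell cannot be told apart. Beside these falls, the 9 macrophage markers summed to 1664 to 1679 RPKM in KO and 6167 to 6374 RPKM in WT, all 9 of them above 1 RPKM in both, while the neutrophil list summed to 199 to 212 RPKM in KO and 47.6 to 55.8 RPKM in WT (8 of 12 and 4 of 12 markers above 1 RPKM) and the monocyte list to 304 to 326 and 151 to 167 RPKM. The part of these cell types in the lectin levels was not tested.

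The activating receptors split at day 0. Clec7a, the beta-glucan receptor, stood at 11.4, 8.89 and 10.6 RPKM in KO and 69.9, 67 and 68.8 RPKM in WT, so that every KO library lay well under every WT library (log2 -2.63 ± 0.25, adjusted p = 6.51e-07). Clec4n, the FcR gamma-coupled Dectin-2, stood at 96.6, 89.5 and 95.6 RPKM in KO and 322, 336 and 328 RPKM in WT (log2 -1.8 ± 0.17, adjusted p = 3.97e-07). Its neighbours Clec4d and Clec4e did not pass. Clec4d had 315, 299 and 307 RPKM in KO and 461, 489.7 and 491 RPKM in WT (log2 -0.64 ± 0.25, adjusted p = 0.0564). The groups of Clec4d do not overlap all the same, and it passed without the 4 libraries that fall with gene length (log2 -0.64, adjusted p = 1.49e-05), under median-of-ratios scaling (adjusted p = 0.0344) and with the replicate number as a block (adjusted p = 0.0464). Mincle (Clec4e) stood at 16.3, 15.1 and 16.1 RPKM in KO and 18.4, 19.3 and 18.8 RPKM in WT, a small gap that did not pass in the fit with all groups (log2 -0.24 ± 0.26, adjusted p = 0.520) and passed without the same 4 libraries (adjusted p = 0.00922).

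Clec5a and Clec12a went the other way. Clec5a, the DAP12-coupled receptor, stood at 26.9, 24.8 and 26.4 RPKM in KO and 4.98, 4.96 and 4.5 RPKM in WT. Every KO library was far above every WT library, a 4.65-fold difference (log2 2.22 ± 0.22, adjusted p = 9.48e-07). Clec12a, the inhibitory MICL, had 79.3, 71.4 and 77.3 RPKM in KO and 47.7, 46 and 46 RPKM in WT, a smaller rise (log2 0.69 ± 0.21, adjusted p = 0.0144) that did not pass under median-of-ratios scaling (log2 0.47, adjusted p = 0.126). In the authors' deposited table all 9 genes had q-values under 0.05 at day 0, from 3.09e-06 for Clec4a1 to 0.00145 for Clec4e, with a ratio of KO over WT of 0.0786 for Clec4a1 and 5.32 for Clec5a.

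At day 4 of RANKL 7 of the 9 genes were lower in KO and none higher, beside 13.4% of the 11530 genes tested (3.06% higher and 10.3% lower). Clec7a showed the greatest difference, at 13.4, 12.9 and 10.8 RPKM in KO and 137 and 94.6 RPKM in WT (log2 -3.11 ± 0.28, adjusted p = 2.00e-06). Clec4d, the partner of Mincle, was now low as well, at 59.3, 52.8 and 106 RPKM in KO and 289 and 560.1 RPKM in WT (log2 -2.52 ± 0.28, adjusted p = 1.72e-05). The groups do not overlap, although the 2 WT libraries differ widely from each other. The highest value of each genotype, 560.1 RPKM in WT and 106 RPKM in KO, is from library 3, whose levels fall with gene length. Clec4a1 (log2 -2.26 ± 0.19, adjusted p = 7.85e-07), Clec4a3 (log2 -1.71 ± 0.28, adjusted p = 0.000551) and Clec4n (log2 -0.85 ± 0.19, adjusted p = 0.00536) stayed lower. Clec4e and Clec5a were scarce at this time and passed narrowly. Clec4e had 1.79, 1.48 and 1.99 RPKM in KO and 4.53 and 4.31 RPKM in WT (log2 -0.98 ± 0.30, adjusted p = 0.0387), and Clec5a had 3.05, 2.04 and 2.59 and 5.03 and 5.36 RPKM (log2 -0.81 ± 0.25, adjusted p = 0.0424). Both calls were lost under median-of-ratios scaling and with the replicate block, and leaving out 1 library ended that of Clec4e for 4 libraries (adjusted p up to 0.121, without WT library 3) and that of Clec5a for 3 (up to 0.163, the same library). Clec4a2 did not pass (log2 -0.53 ± 0.22, adjusted p = 0.157) but did without KO library 3 (log2 -0.74, adjusted p = 0.0171), and Clec12a was level (log2 0.03 ± 0.23, adjusted p = 0.965, 95% interval -0.47 to 0.52). Osteoclast markers differed beside this, at 32410.0 to 48140.0 RPKM in KO and 17730.0 to 18060.0 RPKM in WT, and macrophage markers stood at 1505 to 2004 and 3686 to 4045 RPKM, a shift whose part was not tested. No member had a q-value under 0.05 at day 4 in the authors' deposited table (0.123 to 0.762).

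At day 8 Clec4a2, Clec4a3 and Clec4n, which had been lower in KO at day 0, were higher. In all, 5 genes passed, 4 higher in KO and 1 lower, beside 31.2% of the 11530 genes tested (8.62% higher and 22.6% lower), and the median log2 difference was 0.41 over the members and -0.18 over all genes. Clec4n stood out, at 289, 229.5 and 223 RPKM in KO and 65.3, 76 and 56.7 RPKM in WT, with every KO library above every WT library (log2 1.89 ± 0.17, adjusted p = 8.64e-06). Clec12a had 375, 233 and 233 RPKM in KO and 139, 156 and 129.7 RPKM in WT (log2 0.95 ± 0.21, adjusted p = 0.00481). Clec4a3 (log2 0.94 ± 0.25, adjusted p = 0.0131) and Clec4a2 (log2 0.58 ± 0.20, adjusted p = 0.0405) were also higher in KO. Of these, the call of Clec4a3 was lost without WT library 3 (log2 0.73, adjusted p = 0.0599) and fell to 0.61 without KO library 1, and that of Clec4a2 was lost when any library other than KO library 2 was left out (log2 0.37 without KO library 1). Clec7a remained lower, at 89.8, 39 and 41.6 RPKM in KO and 102, 141 and 111 RPKM in WT (log2 -1.13 ± 0.25, adjusted p = 0.00560). KO library 1 is the closest to WT, and without KO libraries 2 and 3, which fall with gene length, and the 2 such libraries of day 4, Clec7a did not pass (log2 -0.38, adjusted p = 0.0535). Under that setting Clec4e (log2 1.16), Clec5a (1.09), Clec4a1 (0.55) and Clec4d (0.44) passed as higher in KO, with KO library 1 alone for that group and its spread taken from the others. Clec4a1 also passed without KO library 3 (log2 0.58, adjusted p = 0.0275). Stromal markers summed to 1.6 to 14.9 RPKM in KO and 85.2 to 502 RPKM in WT at day 8, and their part was not tested. The authors' deposited table gave q-values under 0.05 at day 8 for Clec4n (0.00625) and Clec12a (0.0313).

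**Figure D2:**
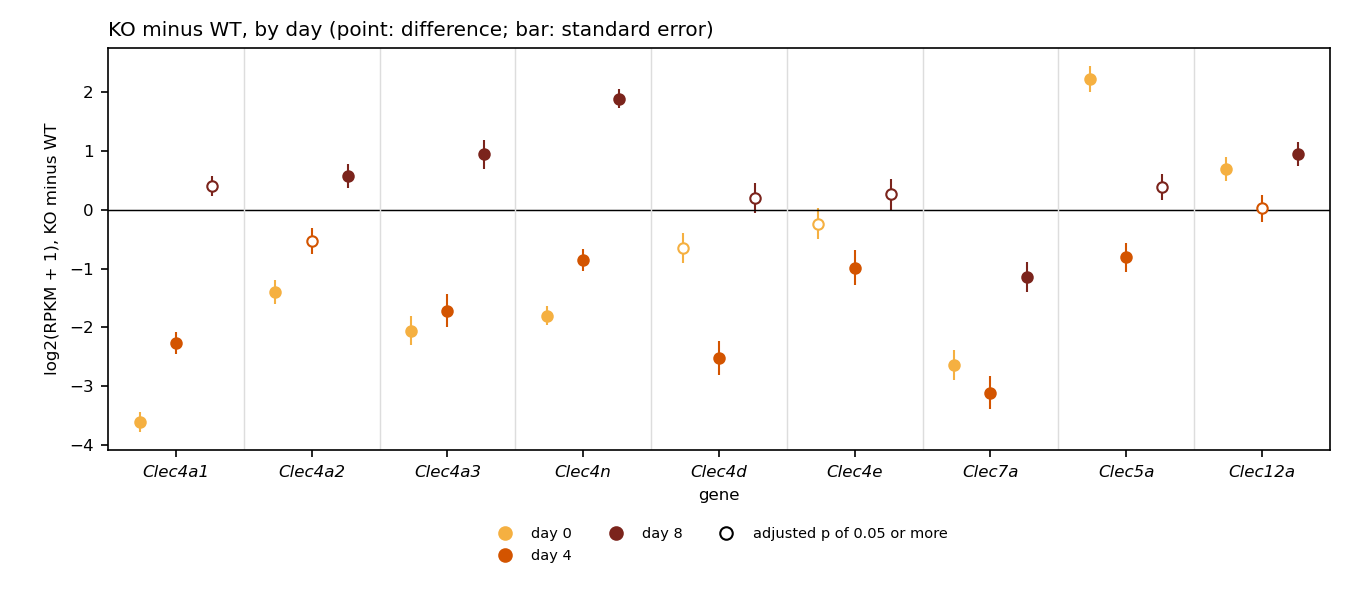
Difference of log2(RPKM + 1), KO minus WT, with its standard error, for each gene at days 0, 4 and 8; open points did not pass. The points of Clec4n run from -1.80 at day 0 to 1.89 at day 8, and those of Clec5a stand at 2.22 at day 0, -0.81 at day 4 and 0.38 at day 8.

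The turn between days 0 and 8 was tested as an interaction of genotype and day, that is, whether the change since day 0 differed between KO and WT. At day 8 it passed for 6 of 9 genes, beside 37.8% of the 11530 genes tested (10.1% higher and 27.7% lower). Clec4a1 (log2 4.01 ± 0.24, adjusted p = 6.16e-09), Clec4n (log2 3.69 ± 0.24, adjusted p = 1.10e-08), Clec4a3 (log2 3.0 ± 0.35, adjusted p = 9.87e-06), Clec4a2 (log2 1.97 ± 0.28, adjusted p = 6.65e-05) and Clec7a (log2 1.5 ± 0.36, adjusted p = 0.00440) changed more upward in KO than in WT, and Clec5a more downward (log2 -1.83 ± 0.31, adjusted p = 0.000320, or log2 -1.13 without the 4 libraries that fall with gene length; Clec7a was then at 2.26). At day 4 the interaction passed for 5 genes, beside 27.6% of the 11530 genes tested (5.85% higher and 21.7% lower). It was upward for Clec4a1, Clec4n and Clec4a2 (1.34, 0.95 and 0.87) and downward for Clec5a and Clec4d (-3.03 and -1.88). The day 4 call of Clec4a2 was lost when any of 8 libraries was left out (adjusted p up to 0.138, without WT day 4 library 1).

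The changes over the days differed by gene. In WT, Clec4a1 fell at both steps, to 101 and 109 RPKM at day 4 and 10.6, 13.2 and 11.2 RPKM at day 8 (day 8 against day 0, log2 -4.14 ± 0.17, adjusted p = 4.94e-11, beside 52.7% of genes), while in KO it kept near its low day 0 level (log2 -0.13 ± 0.17, adjusted p = 0.533, beside 59.2% of genes). Clec4a3 fell by 3.06 on the log2 scale over the 8 days in WT (adjusted p = 8.24e-08) and Clec4n by 2.31 (adjusted p = 2.04e-08). In KO, Clec4a3 did not pass over the 8 days (log2 -0.07 ± 0.25, adjusted p = 0.840), with day 8 libraries spread from 15.8 to 38.8 RPKM. Clec4n rose there (log2 1.38 ± 0.17, adjusted p = 6.65e-06). Mincle fell in both genotypes by day 4 (log2 -2.61 ± 0.26, adjusted p = 6.90e-07 in KO and log2 -1.87 ± 0.30, adjusted p = 0.000204 in WT), and Clec12a rose in both (log2 1.81 ± 0.21, adjusted p = 2.70e-06 in KO and log2 2.47 ± 0.23, adjusted p = 1.46e-06 in WT). Clec5a, Clec4d and Clec7a had a dip or a late rise in KO. From day 4 to day 8 in KO, Clec5a rose (log2 2.41 ± 0.22, adjusted p = 1.75e-06), as did Clec4d (log2 2.14 ± 0.25, adjusted p = 2.27e-05) and Clec7a (log2 2.01 ± 0.25, adjusted p = 4.00e-05). For the same step in WT, Clec5a rose less (log2 1.22 ± 0.25, adjusted p = 0.00213), and Clec4d and Clec7a did not pass (log2 -0.58 ± 0.28, adjusted p = 0.162 and log2 0.04 ± 0.28, adjusted p = 0.937). Clec4d passed as a fall in WT without day 4 library 1 (log2 -1.05). Over these steps 57.9% and 31.6% of genes passed in KO and 43.2% and 23% in WT, 5 and 4 of the members in KO and 4 and 6 in WT. Only the last of these counts, 6 of 9 in WT between days 4 and 8, stands well above its background. The median over all genes moved by -0.43 between days 0 and 4 in KO, and under median-of-ratios scaling, which removes that shift, Clec4a1, Clec4n and Clec7a also passed as rises there (log2 0.79, 0.57 and 0.75).

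The human constructs were set against mock to ask what adding IRF8 to cells without it does. The osteoclast cultures of the second experiment differ from the first in their starting levels: mock cells at day 0 held 1154, 1045 and 1221 RPKM of Clec4d, the highest level of that gene in any group. These mock libraries also had the highest RPKM sums over all genes in the second experiment (592527, 558666 and 512340). Whether their levels fall with gene length was not checked. At day 0 hWT held 212, 193 and 170.0 RPKM, far below every mock library (log2 -2.57 ± 0.09, adjusted p = 1.18e-17), and hG388S and h379-389 were lower than mock too (-2.53 ± 0.09 and -2.58 ± 0.09). Clec5a stood at 13.9, 19.6 and 11.5 RPKM in hWT and 26.6, 25.9 and 48 RPKM in mock (log2 -1.08 ± 0.16, adjusted p = 1.51e-06). Clec4a1 stood at 13.3, 7.11 and 9.33 RPKM in hWT and 21.8, 19.9 and 15.7 RPKM in mock (log2 -0.91 ± 0.16, adjusted p = 1.02e-05), with every hWT library below every mock library. In all, 5 of 9 genes passed in hWT at day 0, 4 lower and Clec7a higher, beside 74.7% of the 11374 genes tested (48.1% higher and 26.6% lower), and the median over all genes was shifted by 0.24. The rise of Clec7a (log2 0.51 ± 0.17, adjusted p = 0.00989) did not pass once that shift was removed (log2 0.20, adjusted p = 0.321), nor without hWT library 2 (log2 0.25) or mock library 1 or 2 (0.42 and 0.33), and stood at 0.76 without mock library 3. Beside these values, neutrophil markers summed to 343 to 522 RPKM in hWT (8 of 12 above 1 RPKM) and 990.1 to 1336 RPKM in mock (11 of 12), and dendritic cell markers to 73 to 93.8 and 5.97 to 11.5 RPKM. Their part was not tested.

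**Figure D3:**
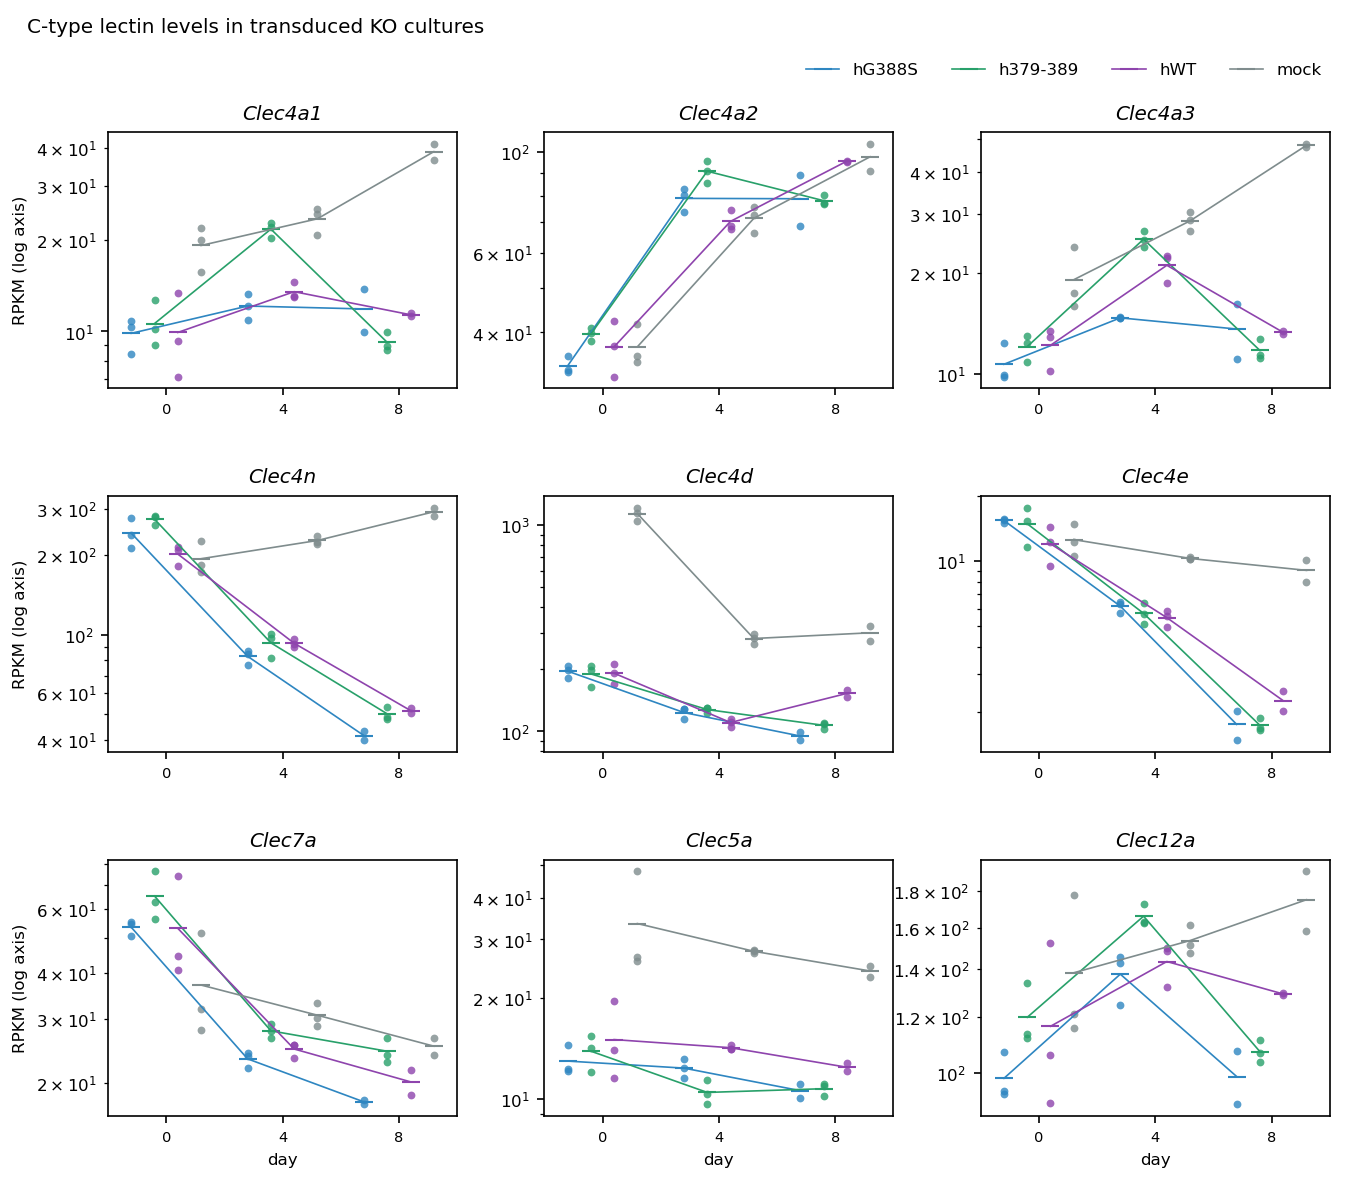
RPKM (log axis) of the 9 genes in every osteoclast-culture library of the second experiment by day, with points for hG388S, h379-389, hWT and mock from left to right and a dash and line for the group mean. Clec4n falls with time in the 3 kinds of cell with a construct and not in mock, and the constructs lie close together.

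Among the 9 genes the largest gaps at day 8 were those of Dectin-2 and the DCIR relatives Clec4a1 and Clec4a3. There, 6 of 9 genes were lower in hWT than in mock and none higher, beside 30.6% of the 11374 genes tested (14.6% higher and 16% lower). Clec4n stood at 50.5 and 52.7 RPKM in hWT and 303 and 281 RPKM in mock, a 5.56-fold gap (log2 -2.48 ± 0.12, adjusted p = 2.02e-14). Clec4a3 stood at 13.2 and 13.5 RPKM in hWT and 47.5 and 48.6 RPKM in mock (log2 -1.77 ± 0.16, adjusted p = 1.46e-09). Clec4a1 and Clec4e, Mincle, were lower as well (log2 -1.69 ± 0.19, adjusted p = 1.01e-07, and log2 -1.62 ± 0.17, adjusted p = 2.02e-08), followed by Clec4d (log2 -0.97 ± 0.11, adjusted p = 1.94e-07) and Clec5a (log2 -0.90 ± 0.20, adjusted p = 0.000898). Clec4a2 did not pass (log2 -0.03 ± 0.12, adjusted p = 0.896, 95% interval -0.27 to 0.22), nor did Clec7a or Clec12a. The falls of Clec4n were also seen within the constructs over time, from day 0 to day 8, at -2.51 ± 0.11 in hG388S, -2.43 ± 0.10 in h379-389 and -1.94 ± 0.11 in hWT, whereas mock rose by 0.60 ± 0.11 (all 4 with an adjusted p under 0.05, beside 45.9%, 49.3%, 54.9% and 66.5% of genes). Osteoclast markers summed to 3320.0 to 3579 RPKM in hWT and 6675 to 8468 RPKM in mock at day 8, and their part was not tested. At day 4 hWT was lower for 6 genes, beside 47.5% of the 11374 genes tested (23.8% higher and 23.7% lower), from -0.42 ± 0.13 for Clec4a3 to -1.35 ± 0.09 for Clec4d. The 3 hWT libraries of day 4 have column names with a prefix of their own, and the prefix and the construct cannot be told apart there. The Clec4a3 call at day 4 was lost without hWT library 1 (log2 -0.34, adjusted p = 0.0575).

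In mock cells alone RANKL was followed by both rises and a fall. Between days 0 and 4 Clec4d fell (log2 -2.01 ± 0.09, adjusted p = 4.55e-16), and Clec4a2, Clec4a3 and Clec4n passed as rises (0.92 ± 0.10, 0.58 ± 0.13 and 0.24 ± 0.10), beside 73.5% of genes and a median of 0.31 over all genes. With that shift removed, Clec4a2 kept passing (0.56), Clec4a3 did not (0.22), and Clec4n turned to -0.14; its call was also lost when any of 4 libraries was left out (adjusted p up to 0.191, without day 0 library 2). Between days 4 and 8 Clec4a1, Clec4a2, Clec4a3 and Clec4n passed as rises of 0.71, 0.44, 0.73 and 0.36, beside 32% of genes. Without day 8 library 1, Clec4a1, Clec4a2 and Clec4n no longer passed (0.62, 0.35 and 0.31).

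The altered constructs were set against hWT to ask whether a changed IRF8 acts differently. Against mock both were lower for most of the genes at day 8. Clec4n stood at 43.2 and 39.8 RPKM in hG388S (log2 -2.79 ± 0.12, adjusted p = 1.63e-15, against mock) and 49, 53.5 and 48 RPKM in h379-389 (log2 -2.52 ± 0.11, adjusted p = 1.57e-15), and 8 of 9 genes passed in each, all lower, beside 20.6% and 24.6% of genes lower (45% and 50% in either direction). The eighth, Clec4a2, lost its call in both without mock library 1 (log2 -0.21 and -0.22), and in hG388S it moved to -0.50 without its library 1 and to -0.13, no longer passing, without its library 2. At day 0, where 7 genes passed in hG388S and 6 in h379-389 beside 73.1% and 73.2% of genes, Clec4n was higher than mock in both (0.32 ± 0.10 and 0.50 ± 0.10). That difference turned to -0.016 in hG388S and shrank to 0.16 in h379-389 under median-of-ratios scaling, and the hG388S call was lost without its library 3 (0.22). At day 4, 6 genes passed in hG388S, all lower, beside 12.7% of genes lower. In h379-389 5 passed beside 30%, with Clec4a2 the one that was higher (log2 0.34 ± 0.10, adjusted p = 0.00836, or log2 0.29, adjusted p = 0.0562, without mock library 3).

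Directly against hWT, 5 of the 54 differences passed, and 22 passed when a fit held only the groups of each comparison. The share of all genes that passed under that fit was not taken, so the 22 has no background. Clec4a3 was lower in hG388S at day 4, at 14.8, 14.7 and 14.7 RPKM in hG388S and 18.7, 22.2 and 22.4 RPKM in hWT (log2 -0.49 ± 0.13, adjusted p = 0.00779), beside 27.7% of genes. In h379-389 at day 4, Clec4a1 stood at 22.7, 21.9 and 20.3 RPKM, above 13, 14.5 and 13 RPKM in hWT (log2 0.64 ± 0.16, adjusted p = 0.00298), and Clec4a2 was higher too (log2 0.36 ± 0.10, adjusted p = 0.00634), beside 32.2% of genes. These day 4 values share the prefix problem above. At day 8 Clec4d stood at 99.6 and 90.4 RPKM in hG388S and 109, 103 and 109 RPKM in h379-389, below 158 and 147 RPKM in hWT (log2 -0.68 ± 0.11, adjusted p = 0.0157, and log2 -0.51 ± 0.10, adjusted p = 0.0230), beside 1.73% and 3.78% of genes. The groups do not overlap, but leaving out any of 3 libraries in the first comparison and any of 4 in the second ended the call (adjusted p up to 0.226, without hG388S library 2, and 0.379, without hWT library 2). Irf8 itself was higher than in hWT at day 8, in hG388S (log2 0.72, adjusted p = 0.0408) and h379-389 (log2 0.69, adjusted p = 0.0239). At day 4 it was lower in h379-389 (log2 -0.58, adjusted p = 0.00318) and did not pass in hG388S. Where Irf8 differed, its level and the altered construct cannot be told apart. At day 0 no member passed in limma, beside 0.765% and 0.0176% of genes, and 2 members in each comparison had an unadjusted p under 0.05. For Clec5a at day 0 the intervals of the difference were -0.51 to 0.16 for hG388S and -0.42 to 0.25 for h379-389 on the log2 scale.

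Macrophages of the third experiment were treated to ask how the cells respond to IFNg and LPS with and without added IRF8. Averaged over the 5 conditions, hWT differed from mock for 7 of 9 genes, 3 higher and 4 lower, beside 35.7% of the 11237 genes tested (17.8% higher and 17.9% lower). The DCIR family was higher, by 0.72 ± 0.05 for Clec4a1, 0.94 ± 0.09 for Clec4a2 and 0.73 ± 0.06 for Clec4a3, which for Clec4a1 and Clec4a3 is the direction opposite to the osteoclast cultures. Clec5a (-0.84 ± 0.07), Clec4e (-0.54 ± 0.18), Clec4d (-0.50 ± 0.07) and Clec4n (-0.38 ± 0.10) were lower. Clec5a was lower and passed in each of the 5 conditions, at 10 and 7.85 RPKM in hWT and 17.8 and 17.5 RPKM in mock with IFNg, for example, and at 12.2 and 12.2 and 26.6 and 26.4 RPKM after 1 h of LPS (log2 -1.06 ± 0.15, adjusted p = 2.24e-05, beside 10.3% of genes). Without the shallow library the average for Clec4e was log2 -0.80 ± 0.05, adjusted p = 2.48e-12, and without hWT untreated library 2 it was -0.28. Within conditions whose libraries share a column-name prefix in both kinds of cell, which leaves out LPS for 4 h, Clec4a1, Clec4a2 and Clec4a3 were at 0.55, 0.74 and 0.59 and the 4 genes that were lower between -0.86 and -0.51. Macrophage markers beside this summed to 5707 to 5796 RPKM in hWT and 2886 to 3008 RPKM in mock with IFNg (all 9 above 1 RPKM in both), and monocyte markers to 875 to 946 and 1831 to 2126 RPKM. Their part was not tested.

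**Figure D4:**
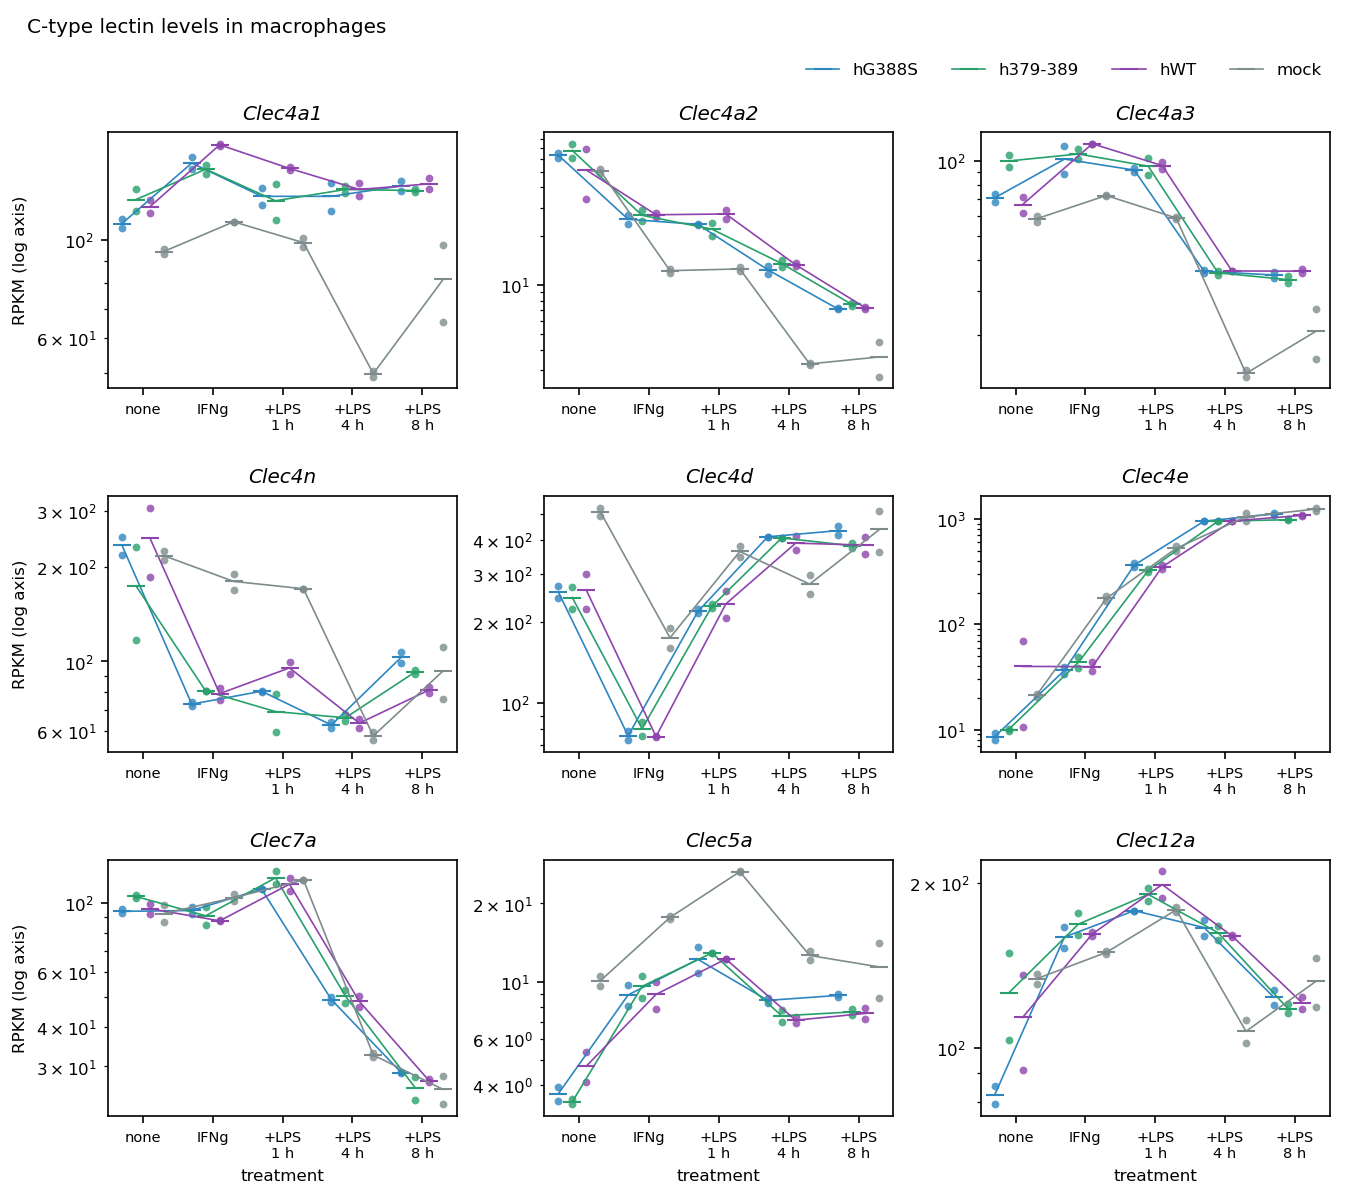
RPKM (log axis) of the 9 genes in every macrophage library by treatment, with points for hG388S, h379-389, hWT and mock from left to right and a dash and line for the group mean. Clec4e lies at group means of 955 to 1053 RPKM after 4 h of LPS in the 4 kinds of cell, and Clec5a lies highest in mock at each treatment.

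By condition the averages hide a turn. Untreated, 1 gene was higher in hWT (Clec4a1) and 2 lower (Clec4d and Clec5a), beside 46% of the 11237 genes tested (17.8% higher and 28.2% lower). Clec4a2 was at -0.07 ± 0.19, or at 0.43 without the shallow library. Clec4e did not pass, and its hWT libraries lay on either side of mock, which held 21.7 and 20.6 RPKM. They held 69.2 RPKM in the shallow library and 10.5 RPKM in the deep one. The untreated calls and the 46% both take in the shallow library. With IFNg 3 were higher and 4 lower, beside 7.53% of genes higher and 4.43% lower, and after 1 h of LPS 3 were higher and 3 lower, beside 5.83% and 4.46%. After 4 h of LPS 6 were higher and 1 lower, beside 15.7% and 17.4%, and MCL had turned to the higher side: Clec4d stood at 412 and 366 RPKM in hWT and 298 and 252 RPKM in mock (log2 0.50 ± 0.15, adjusted p = 0.0104). That condition is the one in which hWT and mock carry different prefixes, and the prefix cannot be told apart from the construct there. After 8 h of LPS the 3 DCIR genes were higher and Clec5a lower, beside 7.68% and 6.82%, and Clec4d did not pass (log2 -0.17 ± 0.15, adjusted p = 0.586).

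For the altered constructs against mock, 8 of 9 genes passed over the 5 conditions in each, 4 higher and 4 lower. They were the 7 that passed in hWT, with the same signs, and Clec7a. These counts stand beside 35.9% and 38.3% of genes, with Clec4a2 at 0.93 ± 0.09 in hG388S and 0.99 ± 0.09 in h379-389 and Clec5a at -0.81 ± 0.07 and -0.86 ± 0.07. Clec7a was at 0.11 and 0.13. In hG388S it was lost when any of 16 libraries was left out (0.08 without mock LPS 8 h library 1) and turned to -0.0066 within a prefix. In h379-389 it was lost without LPS 8 h library 1 of h379-389 or of mock (0.10 and 0.10), and also within a prefix. There 3 genes passed as higher in h379-389, in place of 4. After 4 h of LPS, where the prefixes differ, Clec7a stood at group means of 49.1 RPKM in hG388S, 50.4 RPKM in h379-389 and 32.6 RPKM in mock. Directly against hWT, no member passed in limma, beside 0.0445% of genes for hG388S and 0.427% for h379-389, and 0 members in each had an unadjusted p under 0.05. Without hWT untreated library 2, Clec4e stood at -0.58 in hG388S and -0.56 in h379-389, values that then rest on the shallow library. For Clec4a1 the intervals of the difference were -0.22 to 0.00072 for hG388S and -0.19 to 0.02 for h379-389.

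Mincle and MCL rose with LPS after opposite answers to IFNg. In mock, Clec4e stood at 21.7 and 20.6 RPKM untreated, 187 and 165 RPKM with IFNg, and 495 and 559, 1141 and 964 and 1204 and 1287 RPKM after 1, 4 and 8 h of LPS. It was thus the scarcest but one of the 9 genes without treatment and the most abundant from 1 h of LPS on. IFNg raised it (log2 3.0 ± 0.40, adjusted p = 7.85e-07) and LPS raised it further at 1 h (log2 1.58 ± 0.40, adjusted p = 0.00451), 4 h (log2 2.57 ± 0.40, adjusted p = 3.49e-06) and 8 h (log2 2.82 ± 0.40, adjusted p = 1.30e-06). Clec4d stood at 526 and 491 RPKM untreated and 189 and 159.9 RPKM with IFNg, a fall without overlap (log2 -1.54 ± 0.15, adjusted p = 6.79e-09), and then rose with LPS by 1.06 ± 0.15 at 1 h, 0.65 ± 0.15 at 4 h and 1.3 ± 0.15 at 8 h. Untreated and IFNg libraries of mock share a column-name prefix. Those of 1 and 4 h of LPS share another, and those of 8 h carry neither, so for LPS against IFNg alone the treatment and the prefix cannot be told apart.

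In mock the 7 other genes all fell at 4 h of LPS, beside 64% of the 11237 genes tested, and none fell at 1 h. Clec4a2 fell with IFNg to 12.6 and 11.9 RPKM, against 52.2 and 49.1 RPKM untreated (log2 -1.96 ± 0.19, adjusted p = 9.62e-09), and again by 4 h of LPS, to 3.24 and 3.29 RPKM (log2 -1.64 ± 0.19, adjusted p = 5.19e-08). Clec4a3 stood at 14.4 and 13.6 RPKM after 4 h of LPS and 71.9 and 72.9 RPKM with IFNg alone (log2 -2.29 ± 0.13, adjusted p = 1.81e-13), and Clec7a at 22.7 and 28 RPKM after 8 h and 107 and 101 RPKM with IFNg alone (log2 -2.0 ± 0.09, adjusted p = 4.03e-15). Clec5a peaked at 1 h of LPS, at 26.6 and 26.4 RPKM, against 17.8 and 17.5 RPKM with IFNg (log2 0.56 ± 0.15, adjusted p = 0.00695). In all, 5 genes passed in mock with IFNg beside 63.2% of the 11237 genes tested, and 3, 9 and 8 with LPS at 1, 4 and 8 h beside 26.4%, 76.3% and 65.9%. The median over all genes fell by 0.69 on the log2 scale at 4 h and by 0.42 at 8 h. Relative to that shift (median-of-ratios scaling) the falls of Clec4a2, Clec4a3 and Clec7a at 4 h stood at -0.74, -1.26 and -0.59 and still passed. The fall of Clec4a1 at 4 h (-1.13) did not pass on that scale (-0.07), and Clec5a and Clec12a turned from -0.46 and -0.47 to 0.55 and 0.59. The rise of Clec4a3 with IFNg (log2 0.31 ± 0.13, adjusted p = 0.0486) was lost when any 1 of the 4 libraries was left out (adjusted p up to 0.176, without untreated library 1).

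Cells with hWT started lower in Mincle with IFNg and, on the log2 scale, rose more by 4 and 8 h of LPS. With IFNg, Clec4e stood at 43.6 and 35.7 RPKM in hWT and 187 and 165 RPKM in mock, without overlap (log2 -2.13 ± 0.40, adjusted p = 0.000597, beside 12% of genes). After 4 h of LPS the levels were 954 and 963 RPKM in hWT and 1141 and 964 RPKM in mock, and after 8 h 1091 and 1077 and 1204 and 1287 RPKM, and neither difference passed (log2 -0.13 ± 0.40, 95% interval -0.96 to 0.70, and -0.20 ± 0.40, -1.03 to 0.63). The standard error of Clec4e pools all groups, among them the untreated hWT pair of 69.2 and 10.5 RPKM, the first from the shallow library. These intervals therefore do not describe the spread at 4 and 8 h alone. At 8 h the hWT and mock libraries do not overlap. The LPS rise in hWT was 4.57 ± 0.40 at 4 h (beside 78% of genes), and the interaction of hWT with 4 h of LPS passed (log2 2.0 ± 0.56, adjusted p = 0.0115). Clec4d followed: with IFNg it stood at 75.7 and 75 RPKM in hWT and 189 and 159.9 RPKM in mock, and was above mock after 4 h of LPS, as given above (interaction, log2 1.7 ± 0.21, adjusted p = 3.45e-06). Clec4n (log2 1.31 ± 0.31, adjusted p = 0.00303), Clec7a (log2 0.80 ± 0.13, adjusted p = 0.000113), Clec4a1 (log2 0.79 ± 0.17, adjusted p = 0.00120) and Clec4a3 (log2 0.62 ± 0.19, adjusted p = 0.0174) also had an upward interaction, which makes 6 of 9 beside 24.4% of genes. The call of Clec4a3 was lost without mock IFNg library 1, mock LPS 4 h library 2 or hWT LPS 4 h library 1 (adjusted p = 0.0509, 0.0653 and 0.0534). At 4 h the hWT and mock libraries carry different prefixes, which cannot be told apart from the construct. At 8 h, where they share one, the interaction passed for Clec4d, Clec4e and Clec4n (log2 1.02 ± 0.21, adjusted p = 0.00222, log2 1.93 ± 0.56, adjusted p = 0.0326, and log2 1.0 ± 0.31, adjusted p = 0.0423), beside 8.69% of genes, and at 1 h for none, beside 0.481% of genes (2 members had an unadjusted p under 0.05). At 1 h Clec4e stood at group means of 351 RPKM in hWT and 527 RPKM in mock. Its test there carries the same pooled spread, so the missing call does not show an equal change in hWT and mock. The tests at 1 and 8 h were added after the data had been seen.

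**Figure D5:**
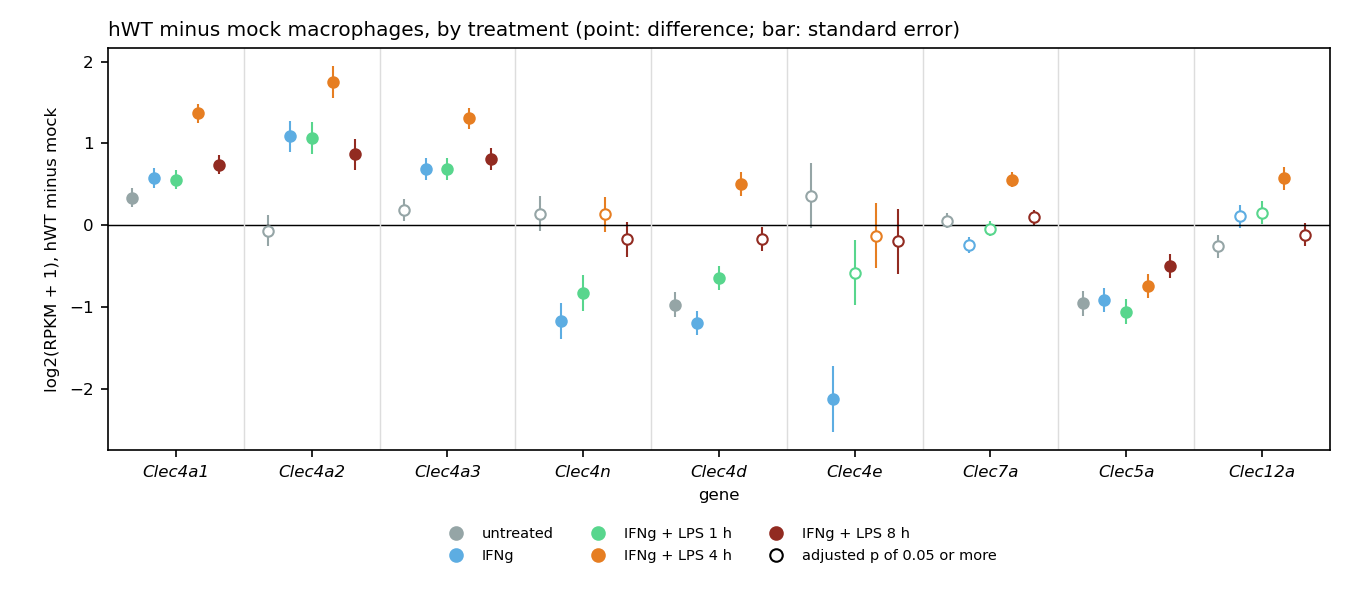
Difference of log2(RPKM + 1), hWT minus mock macrophages, with its standard error, for each gene in the 5 conditions; open points did not pass. Clec4e is lowest with IFNg at -2.13 and near 0 after 4 and 8 h of LPS at -0.13 and -0.20, and Clec4a2 is highest after 4 h of LPS at 1.75.

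The answer to IFNg itself also differed with hWT for 3 genes, beside 25.5% of genes. For Clec4e the interaction was log2 -2.49 ± 0.56, adjusted p = 0.00425. It rests on the untreated hWT pair of 69.2 and 10.5 RPKM, of which the first is the shallow library. Without that library the rise with IFNg in hWT was 1.81 (adjusted p = 2.26e-11) and the interaction -1.18 (adjusted p = 4.30e-05). With the shallow library alone the change with IFNg in hWT turned to -0.80 and the interaction stood at -3.79. Clec4n fell with IFNg in hWT (log2 -1.59 ± 0.22, adjusted p = 2.89e-06, beside 51% of genes) to 82.5 and 75.6 RPKM, against 185 and 308 RPKM untreated, and did not pass in mock (log2 -0.27 ± 0.22, adjusted p = 0.281), with an interaction of log2 -1.31 ± 0.31, adjusted p = 0.00511. The untreated 185 RPKM is from the shallow library, and the deep library stood higher, at 308 RPKM. Clec4a2 fell less in hWT than in mock (interaction log2 1.15 ± 0.27, adjusted p = 0.00560, and log2 0.65, adjusted p = 0.0278, without the shallow library). In hG388S and h379-389, whose untreated libraries are deep, Clec4e rose with IFNg by 1.97 ± 0.40 and 2.01 ± 0.40, and Clec4n fell (-1.66 ± 0.22 and -1.02 ± 0.22), beside 42.7% and 41.7% of genes. The untreated and IFNg libraries of h379-389, unlike those of the other kinds of cell, carry different prefixes, which cannot be told apart from IFNg.

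The adaptors and kinases that carry the signals of these receptors were read as a list of 18 genes. In KO against WT none was higher and 5 were lower at day 0 (list median -0.20, all genes 0.12), beside 13.7% of all genes lower, among them Bcl10 (-0.97), Syk (-1.34), Prkcd (-0.84) and Src (-1.12). At day 4 none was higher and 5 lower, beside 10.3% of genes lower, with Fcer1g, the FcR gamma adaptor, at -0.99, and at day 8 2 were higher and 5 lower, beside 8.62% and 22.6%, with the CARD9 partner Malt1 at -1.27. In macrophages over the 5 conditions hWT was higher than mock for 6 and lower for 5, beside 17.8% and 17.9% of genes, with Nfatc2 at 0.89. With 4 h of LPS in mock, 8 rose and 9 fell, beside 12.3% and 64% of genes, with Nfkb1 at 2.86 and Card9 at -3.08. A second list, of 26 other C-type lectins, had 15 genes tested in the first experiment and 14 in the third. At day 0, 3 were higher and 5 lower in KO (list median -0.30), beside 26.5% and 13.7% of genes, among them the galactose-type lectins Clec10a (-3.17) and Mgl2 (-2.80). In hWT macrophages 8 were higher than in mock and 3 lower, beside 17.8% and 17.9% of genes (list median 0.28, all genes -0.02), with Clec9a, a receptor of cross-presenting dendritic cells, at 2.22, Clec10a at 1.64 and the mannose receptor Mrc1 at 1.11. The values named in this paragraph are log2 fold changes with adjusted p under 0.05, given for up to 4 genes per list with the smallest adjusted p.

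Over the 38 group means, the genes whose levels were most like those of a member (Pearson r of log2(RPKM + 1), among 9981 genes, with groups of one experiment sharing cultures and prefixes) included Marcksl1 (0.98) and Fpr1 (0.978) for Clec4e, H2-K2 (0.953) and Ms4a4a (0.92) for Clec4a1, Idh3g (0.956) and Idh2 (0.947) for Clec4a2, and Adgre4 (0.90) and Limd2 (0.873) for Clec4a3. For the other 5 members the closest gene was less alike: Mapre3 (0.807) for Clec7a, Fth1 (0.791) for Clec4d, Pdlim4 (0.765) for Clec4n, Serpinb1c (0.747) for Clec5a and Snx10 (0.727) for Clec12a. Among the members themselves, Clec4a1 and Clec4a3 were the most alike (r = 0.860), and Clec4a2 and Clec4e the most opposed (r = -0.921). Ordered by level, Clec4e spanned the widest range of all members, with its mean 145.6-fold higher in mock after 8 h of LPS than in untreated hG388S within the third experiment, and Clec12a in the osteoclast cultures with constructs the narrowest, at 1.78-fold between mock at day 8 and hG388S at day 0. Neighbours in these orders often overlap: for Clec12a in those cultures the ranges of 10 of 11 neighbouring pairs of groups did, and for Clec4e in macrophages those of 8 of 19.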

How the data were processed

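RNA-seq levels of 24543 genes in 90 libraries were taken as the RPKM values that the authors deposited. The submitters' processing notes name mm10 as the genome build and TopHat2 2.1.0, Partek, deepTools, bcl2fastq 2.17.1 and CASAVA 1.8.4 as tools; the sources used here do not say how reads of close relatives were counted. The ratio of KO over WT and the q-value of each gene were copied from the authors' deposited tables for the first experiment. How many libraries came from separate mice is not given.

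RPKM values were analysed as log2(RPKM + 1) with limma 3.58.1 in R 4.3.3 (1 mean per group, trended prior, Benjamini-Hochberg adjustment over all genes of a contrast). Each of the 3 experiments was fitted over all its groups, on genes that reached 1 RPKM in 2 or more of its libraries. The model was tested on simulated data first. The depth of a library limits the precision of low values. Tables were handled in Python 3.11.15 with pandas 2.3.3, and figures were drawn with matplotlib 3.10.9. Gene lists and the 9 genes were chosen with earlier results of these data known. All 9 genes are named whatever their values; from each list up to 4 with the smallest adjusted p that passed could be named, and for each of the 9 genes the 2 most alike. Settings tried were another pseudocount (0.1), no filter, median-of-ratios scaling, each library left out, only the groups of a contrast in the fit, the replicate number as a block, a length trend subtracted, and, added after the data had been seen, the 4 libraries with a length trend left out and conditions within a column-name prefix. Replicate numbers were checked as pairs in 32 contrasts, 15 of them with 3 pairs. In 3 of these, h379-389 against mock at days 0 and 4 and hG388S against hWT at day 0, every correlation of deviations was above 0.1, and the block changed no call of the 9 genes there. The highest correlations of all, 0.871 and 0.899, were in KO against WT at day 4, which had only 2 pairs. The main test at that day did not use the pairing, and the block ended its calls of Clec4e and Clec5a.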

Additional observations from a re-analysis of the deposited data

Results flagged for a closer look

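Each of the following differences between groups passed a test of the difference itself (limma interaction, adjusted over all genes of the contrast), given on the log2 scale. For KO against WT, the change since day 0 differed at day 4 for Clec4a1 (1.34), Clec4a2 (0.87), Clec4n (0.95), Clec4d (-1.88) and Clec5a (-3.03). At day 8 it differed for Clec4a1 (4.01), Clec4a2 (1.97), Clec4a3 (3.0), Clec4n (3.69), Clec7a (1.5) and Clec5a (-1.83).

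For hWT against mock macrophages, the change with IFNg differed for Clec4a2 (1.15), Clec4n (-1.31) and Clec4e (-2.49), and the values of the untreated hWT pair behind it are those of a shallow and a deep library. The change with 4 h of LPS differed for Clec4a1 (0.79), Clec4a3 (0.62), Clec4d (1.7), Clec4e (2.0), Clec4n (1.31) and Clec7a (0.80), where column-name prefix and construct cannot be told apart. The change with 8 h of LPS differed for Clec4d (1.02), Clec4e (1.93) and Clec4n (1.0).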

How the results depend on the processing

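Of the 27 differences of KO against WT 19 passed, and leaving out 1 library gave 17 to 20. The other settings moved that count further in both directions, with 16 as the lowest. The block on replicate number changed 5 calls in 369 values. Clec4d in KO at day 0 then passed (adjusted p = 0.0464), and Clec4e and Clec5a in KO at day 4, Clec4a2 between days 4 and 8 in WT and Clec4a3 with IFNg in mock did not; it changed no other call. Without the 4 libraries with a length trend, 14 of 18 day differences in KO passed (9 with them) and 17 of 18 genotype by day interactions (11 with them). With only the groups of a contrast in the fit, 22 of 54 differences of altered constructs from hWT in osteoclast cultures passed (5 otherwise). Leaving out 1 library gave 3 to 6 for that count, 5 to 9 for the 8 day differences in mock, and 0 to 4 for the 0 differences of altered constructs from hWT in macrophages. No share of all genes was taken without the 4 libraries or with only the groups of a contrast, so those counts have no background. Under median-of-ratios scaling 316 of 369 values kept direction and call, and 17 turned. These were Clec4n in mock between days 0 and 4 (-0.14), Clec4n in hWT (-0.25) and hG388S (-0.016) and Clec4a2 in h379-389 (-0.24) against mock at day 0, Clec5a (0.55) and Clec12a (0.59) with LPS at 4 h in mock, Clec4a1 (0.14) and Clec12a (0.42) at 8 h in mock, Clec4a1 (0.81), Clec4a2 (0.12), Clec4n (0.83), Clec5a (0.74), Clec7a (0.29) and Clec12a (1.13) at 4 h in hWT, and Clec4a1 (0.41), Clec5a (0.42) and Clec12a (0.29) at 8 h in hWT. That scaling moves the median of all genes by the shifts given for LPS. Clec4e with IFNg in hWT ranged between -0.80 and 1.81 without 1 library and turned without untreated library 2. Within a prefix, Clec7a turned to -0.0066 in hG388S macrophages and lost its call in those with h379-389. For the rest, the cause of a change was not tested. The pseudocount of 0.1 kept 366 of 369 values, and no filter 362. The column-name prefix as a term was not run, because it could not be fitted beside the groups.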
